A study of Mus musculus with 10 samples.

Results

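Expression of 9 genes that mark lung macrophages was followed in mouse lung squamous cell carcinoma (SCC) and in wild-type (WT) lung. They were taken as a fixed list by name: Marco, Chil3, Pparg, Siglec1 and Mrc1 as markers of the resident alveolar macrophage, Spp1, Trem2 and Gpnmb as markers of macrophages found in tumours, and Adgre1 as a gene that most tissue macrophages share. All 9 had a probe, out of 19096 genes that could be paired with one, and all 9 were well above background on every array. Each gene was represented by its probe with the highest mean over the 10 arrays.

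The series compared 5 WT whole lungs with 5 SCC samples, each on its own single-colour array that reads the abundance of a labelled RNA at each probe as brightness. Per the labels, all mice were 13 months old and of strain B6.129. The WT mice are given as wild type with the floxed Lkb1 allele (Lkb1f/f), and the tumours came from CCSPiCreLkb1f/f mice, which carry the same allele together with Cre under the promoter of the club cell secretory protein (CCSP). Lkb1 encodes a tumour suppressor kinase, and the comparison asked which genes change in the tumour that forms after it is deleted. That promoter is active in airway epithelial cells, and whether Cre acted in macrophages was not tested. Stk11, the symbol under which Lkb1 is listed, is not analysed here. Both groups are bulk tissue, a whole lung on one side and a tumour on the other, and fewer cells of a type cannot be told apart from less RNA per cell.

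Alveolar macrophages live in the air spaces, where they clear surfactant lipids and inhaled particles. Their identity depends on the growth factor GM-CSF and on the nuclear receptor PPAR gamma. Macrophages that take up lipid or dying cells in tumours and injured tissue often turn on another group of genes, among them the lipid receptor Trem2, the lysosomal glycoprotein Gpnmb and the secreted phosphoprotein Spp1. None of these genes is exclusive to macrophages: Spp1 and Gpnmb are also made by some epithelial and tumour cells.

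The tumour-type genes rose and most alveolar genes did not. Spp1, Trem2 and Gpnmb were all higher in SCC, by between 4.88-fold and 9.91-fold, and no SCC array overlapped a WT array for any of them. Among the 5 alveolar genes, the sialic acid receptor Siglec1 rose 2.47-fold, the scavenger receptor Marco was 1.69-fold lower and the mannose receptor Mrc1 1.57-fold higher, both past the adjusted p but under 2-fold. Chil3 and Pparg did not pass the test. Calls required a limma adjusted p under 0.05 and a change of 2-fold or more. By that rule 4 of the 9 genes were called, all higher in SCC. Over all 30374 probes tested, 9.92% were called higher and 13.0% lower. With arrays scaled to their 75th percentile in place of quantile normalization, the share of calls that were higher went from 43.3% to 53.2% and the median over all probes shifted by 0.12. On the quantile scale the median difference was 2.48 log2 units over the 3 tumour-type genes, 0.10 over the 5 alveolar genes and -0.09 over all tested probes.

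SCC replicate 2 stood apart from the other tumours and bears on most of these values. It correlated with the WT arrays at r = 0.940 to 0.946 across probes, above the 0.850 to 0.905 of the other 4 SCC arrays. Over the 3 squamous markers that were well above background on all arrays (Krt5, Krt14 and Trp63) its median was 8.04 log2 units over the WT mean, against 10.79 to 11.12 on the other tumours. SCC replicate 5 differed in another way: 90.2% of its probes were well above background, against 71.0% to 74.3% on the other 9 arrays. Of the 3 slides the first held WT replicates 1 to 4, the second WT replicate 5 with SCC replicates 1 to 3, and the third SCC replicates 4 and 5. Alveolar epithelial markers had a median of -0.06 on SCC replicate 2 relative to the WT mean, and -0.69 to -0.77 on the other tumours. How much normal lung each tumour sample held was not tested. Differences of the 9 genes are given with and without SCC replicate 2, and those of other genes without it where the fold moved by over 1.5 times. The labels do not say that the samples of a group came from separate animals, and p-values measure the spread between these samples.

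**Figure D1:**
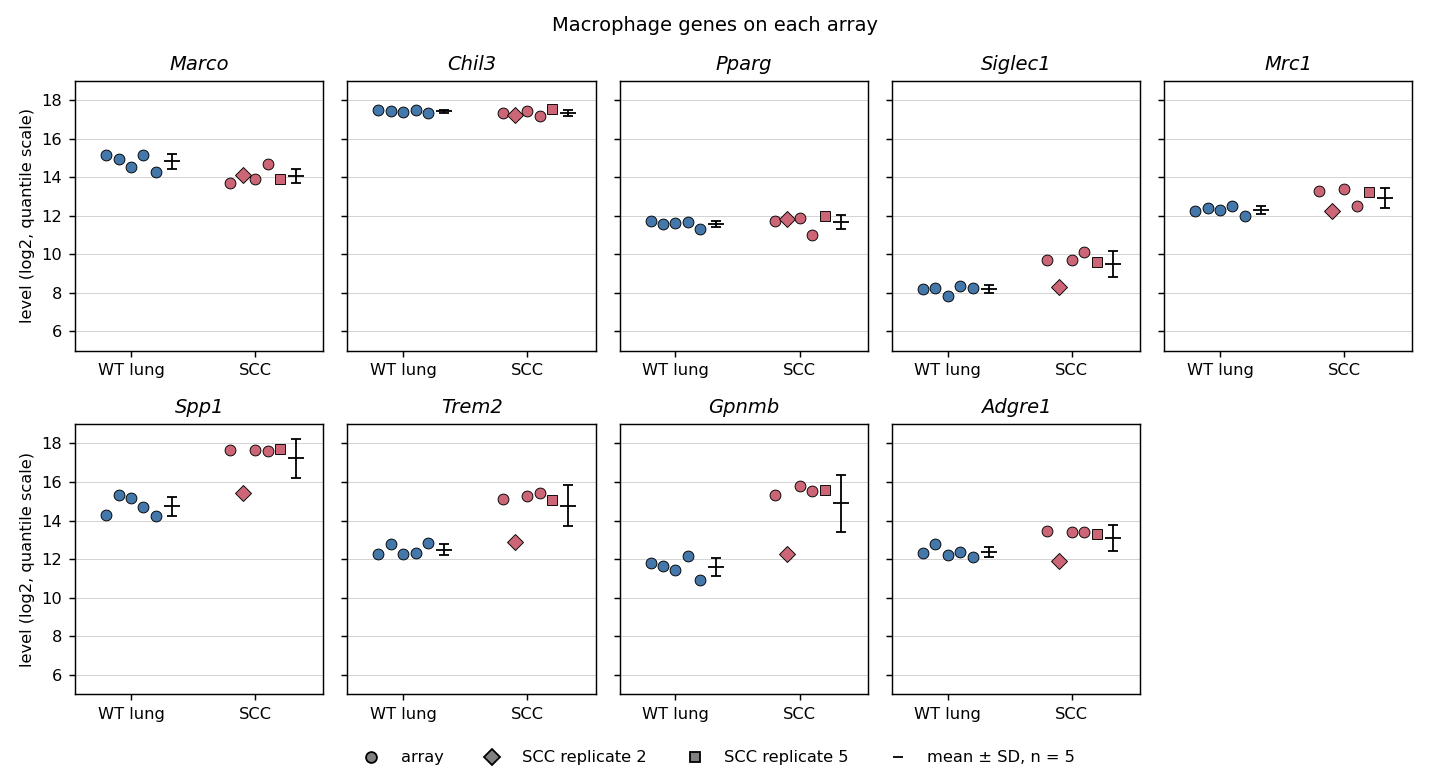
Level of each macrophage gene (y axis, log2 units after quantile normalization) on the 5 WT lung arrays and the 5 SCC arrays (x axis, replicates 1 to 5 from left to right within a group), with the group mean ± SD (n = 5) at the right of each group. For Gpnmb, SCC replicate 2 (diamond) lay at 12.26 while the other 4 tumours lay between 15.31 and 15.79, and for Chil3 both groups lay between 17.19 and 17.56.

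The promoters of the genes at the centre of this contrast are shown first, because PU.1 is the factor that macrophage genes most often share and AP-1 is a factor of activated macrophages. The stretches below are the 160 bases before the transcription start in RefSeq (GRCm38.p6), printed 5′ to 3′ on the strand of the gene. Capitals mark the letters GAGGAA, the core that PU.1 binds, on either strand (TTCCTC when read on the other strand), and TGANTCA, the AP-1 site, which reads the same on both strands apart from its middle base.
Marco, chr1:120505025-120505184, minus strand: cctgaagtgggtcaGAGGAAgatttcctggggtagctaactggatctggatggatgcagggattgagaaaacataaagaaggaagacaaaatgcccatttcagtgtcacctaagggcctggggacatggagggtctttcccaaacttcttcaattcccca
Mrc1, chr2:14229254-14229413, plus strand: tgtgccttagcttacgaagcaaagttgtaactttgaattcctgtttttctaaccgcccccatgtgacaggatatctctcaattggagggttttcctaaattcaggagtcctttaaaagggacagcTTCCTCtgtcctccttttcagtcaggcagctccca
Spp1, chr5:104434951-104435110, plus strand: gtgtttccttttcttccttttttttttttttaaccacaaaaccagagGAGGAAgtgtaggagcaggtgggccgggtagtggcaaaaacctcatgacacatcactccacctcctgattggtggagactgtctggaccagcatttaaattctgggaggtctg
Trem2, chr17:48346241-48346400, plus strand: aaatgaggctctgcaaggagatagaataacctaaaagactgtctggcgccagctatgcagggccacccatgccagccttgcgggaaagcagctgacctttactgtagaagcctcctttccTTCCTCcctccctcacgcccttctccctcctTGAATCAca
Gpnmb, chr6:49036358-49036517, plus strand: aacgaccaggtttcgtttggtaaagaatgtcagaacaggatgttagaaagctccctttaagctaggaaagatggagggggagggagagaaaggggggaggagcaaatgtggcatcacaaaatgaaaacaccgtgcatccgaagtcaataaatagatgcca

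Of the 9 genes 7 had a promoter in the RefSeq table, which gives 250 bases before the start and 50 after it. Pparg had 3 promoters there and Spp1 2, and a gene counts below if any of its promoters matched. These counts of genes are therefore not like for like with the shares of promoters. GAGGAA was found in at least 1 promoter of 5 of these 7 genes (Marco, Pparg, Mrc1, Spp1 and Trem2) and in 28.3% of all 32851 promoters of that length. TGANTCA was found in Trem2 at positions -9 to -3 from the start and in Gpnmb at positions 9 to 15, inside the transcribed part that is not printed, against 7.81% of all promoters. The C/EBP motif TTNCNNAA was in at least 1 promoter of all 7, though for Spp1 not in the one printed, and in 40.7% of all promoters. AGGTCA, a repeat unit bound by nuclear receptors, was in Pparg and Trem2 and in 16.3% of all promoters. Neither CACGTG, the E-box read by MITF and TFE factors, nor TGACGTCA, the cyclic AMP element, was in any of the 7, and they were in 7.15% and 1.79% of all promoters. All motifs were searched on both strands. No match to 1 motif overlapped a match to another, while C/EBP matches overlapped each other in Marco and Mrc1. The genes that rose and those that did not both carried GAGGAA, as Spp1 and Marco show, and such a match is a description of the letters only.

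Marco, a receptor that binds bacteria and particles on alveolar macrophages, was lower in SCC and passed the adjusted threshold. On WT replicates 1 to 5 it was at 15.17, 14.93, 14.56, 15.17 and 14.29 log2 units. On SCC replicates 1 to 5 it was at 13.71, 14.12, 13.94, 14.68 and 13.91. Of the 5 tumours 4 were below every WT lung, and SCC replicate 4 lay within the WT range. The difference was -0.75 log2 units (SE 0.23, 95% interval -1.26 to -0.25, limma adjusted p 0.0199, exact permutation p 0.0238), which is 1.69-fold and short of the 2-fold threshold. SCC replicate 2 did not stand apart here, and the difference without it was -0.77.

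Chil3, also called Ym1, is a chitinase-like protein that alveolar macrophages secrete in large amounts. Its level was 17.48, 17.45, 17.40, 17.49 and 17.32 on the 5 WT arrays and 17.35, 17.21, 17.45, 17.19 and 17.56 on the 5 SCC arrays. The groups overlapped. The difference was -0.08 (SE 0.095, limma adjusted p 0.529, exact permutation p 0.349), with a 95% interval of -0.29 to 0.14 that did not reach 2-fold on either side. It was -0.04 without SCC replicate 2. The sign of so small a difference turned with the scaling: it was 0.19 when arrays were scaled to their 75th percentile. Chil4 is a near-identical copy, and what each probe reads of the other gene is uncertain. Its probe rose by 1.76 (SE 0.58, limma adjusted p 0.0305).

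Pparg, the nuclear receptor that sets alveolar macrophage identity, was at 11.72, 11.59, 11.61, 11.71 and 11.33 on the WT arrays. On the SCC arrays it was at 11.76, 11.81, 11.88, 11.02 and 11.97. Of the tumours 4 were above every WT lung and SCC replicate 4 was below all of them. The difference was 0.10 (SE 0.18, 95% interval -0.30 to 0.50, limma adjusted p 0.671, exact permutation p 0.619), and it was 0.26 without SCC replicate 4 and 0.07 without SCC replicate 2. Pparg is also read in adipocytes, of whose 7 tested markers 4 were called lower (2 with 75th percentile scaling). Adipoq and Retn were 2 of these and were tested through their WT arrays alone. Over the other 5, Plin1 and Cfd fell and the median difference was -0.68.

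Siglec1 (CD169), a receptor for sialylated cells, was the alveolar member that moved with the tumour-type genes. It was at 8.22, 8.25, 7.86, 8.38 and 8.24 on the WT arrays and at 9.70, 8.32, 9.70, 10.13 and 9.63 on the SCC arrays. Replicates 1, 3, 4 and 5 were above every WT lung, and SCC replicate 2 lay inside the WT range. Siglec1 rose by 1.30 log2 units (SE 0.30, limma adjusted p 0.00514, exact permutation p 0.0159), and by 1.60 without SCC replicate 2. Another probe, well above background on 4 tumours and no WT lung, was at least 1.26-fold higher in SCC (measured difference 0.84, limma adjusted p 0.0144). It was tested through its SCC arrays alone, and is no further support for the rise.

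Mrc1, the mannose receptor CD206, is present on alveolar macrophages and on many tumour macrophages. Its level was 12.27, 12.39, 12.33, 12.51 and 11.98 on the WT arrays and 13.30, 12.27, 13.39, 12.51 and 13.26 on the SCC arrays. Replicates 1, 3 and 5 were above all WT lungs, replicate 2 lay within the WT range and replicate 4 level with the highest WT lung. The difference was 0.65 (SE 0.23, limma adjusted p 0.0419, exact permutation p 0.0556), which is 1.57-fold. Without SCC replicate 2 it was 0.82 (limma adjusted p 0.00572). The pass at the adjusted threshold was lost in 13 of 21 other settings, among them 8 of the 10 fits without 1 array.

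Spp1, or osteopontin, is a secreted ligand of CD44 and of several integrins. It was at 14.27, 15.35, 15.16, 14.69 and 14.26 on the WT arrays and at 17.68, 15.41, 17.68, 17.62 and 17.73 on the SCC arrays. The 4 tumours other than replicate 2 lay between 17.62 and 17.73, and replicate 2 was just above the highest WT lung. Spp1 rose by 2.48 log2 units (SE 0.46, limma adjusted p 0.00173, exact permutation p 0.00794, the smallest that splits of the 10 arrays allow), or 5.58-fold, and by 2.93 without SCC replicate 2. No probe of the 9 genes carried the saturation flag. Of 7 tested receptors of Spp1 1 rose and 1 fell, close to the 9.92% and 13.0% over all probes, and the median was -0.02. CD44, its main receptor outside the integrins, differed by 0.85 (limma adjusted p 6.52e-04, under 2-fold), and integrin beta 1 (Itgb1) differed by -0.55. Integrin alpha V (Itgav) rose by 1.10 log2 units and integrin alpha 4 (Itga4) fell 2.33-fold. Integrin beta 5 (Itgb5), the brightest, differed by -0.02 (limma adjusted p 0.899).

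Trem2, a receptor for lipids and apolipoproteins, signals through the adaptor Tyrobp and the kinase Syk. It was at 12.27, 12.76, 12.26, 12.30 and 12.82 on the WT arrays and at 15.14, 12.90, 15.29, 15.46 and 15.07 on the SCC arrays. All 5 tumours were above the WT lungs, replicate 2 only just. Trem2 rose by 2.29 log2 units (SE 0.45, limma adjusted p 0.00227, exact permutation p 0.00794), or 4.88-fold, and by 2.75 without SCC replicate 2. Its other probe rose by 2.47. Of 8 tested genes of its signalling chain Syk rose 2.07-fold and the remaining 7 were not called. That count is near the 9.92% called higher over all probes. Without SCC replicate 2 the list had 3 higher calls, and without SCC replicate 5 it had 0, so these counts rest on single arrays. Tyrobp differed by 0.83 (limma adjusted p 0.0329), the sheddase Adam17 by 0.78 (limma adjusted p 0.0141) and Plcg2, the phospholipase downstream, by 0.01.

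Gpnmb, a glycoprotein of lysosomes and melanosomes, was at 11.79, 11.66, 11.45, 12.16 and 10.90 on the WT arrays. On the SCC arrays it was at 15.31, 12.26, 15.79, 15.55 and 15.59. Again 4 tumours lay together and SCC replicate 2 lay just above the highest WT lung. Gpnmb rose by 3.31 log2 units (SE 0.63, limma adjusted p 0.00199, exact permutation p 0.00794), or 9.91-fold, and without SCC replicate 2 by 3.97, or 15.7-fold. Its other probe was well above background on 2 of 5 WT arrays, and was therefore tested through its SCC arrays alone and is no further support for the rise. Melanocytes and osteoclasts also make Gpnmb. Of their markers 2 of 6 tested rose and 1 fell (2 without SCC replicate 5, where the further one, Dct, was tested through its WT arrays alone). The fusion protein Dcstamp rose by 2.21 and the melanosome protein Pmel by 1.30 log2 units, both without overlap between groups, and Calcr fell by 2.66. Over all tested probes 9.92% were called higher and 13.0% lower, and 16.3% had no overlap with SCC higher. Tyr and Tyrp1 were well above background on no array, and the mean level of the list was 6.35 to 6.75 on the WT arrays and 6.24 to 7.12 on the SCC arrays. The part of these cells in the Gpnmb result was not tested.

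Adgre1, an adhesion receptor of most mouse macrophages, did not pass the adjusted threshold. It was at 12.33, 12.80, 12.19, 12.34 and 12.10 on the WT arrays and at 13.45, 11.90, 13.43, 13.43 and 13.31 on the SCC arrays. Replicates 1, 3, 4 and 5 lay above every WT lung within 0.14 log2 units of each other, and SCC replicate 2 lay below all of them. The difference was 0.75 (SE 0.30, limma adjusted p 0.0621, exact permutation p 0.0476). Without SCC replicate 2 it was 1.05, or 2.07-fold, with a limma adjusted p of 1.83e-04, so that this library decided the call. Another, dimmer probe differed by 0.66 (limma adjusted p 0.417).

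**Figure D2:**
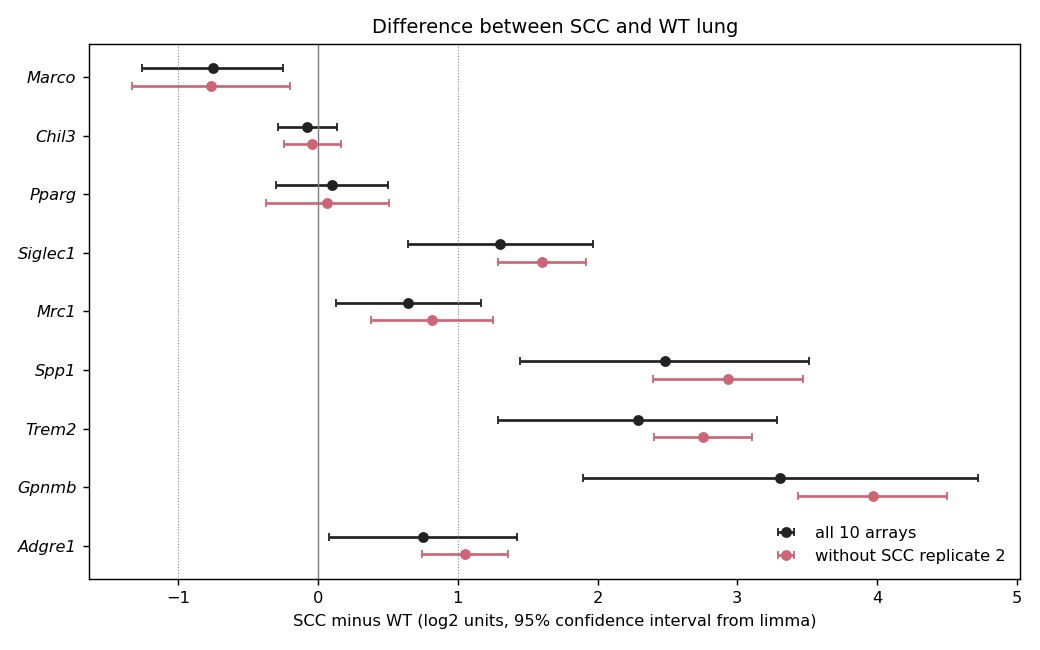
Difference between SCC and WT lung (x axis, SCC minus WT in log2 units) with its 95% interval from limma for each of the 9 genes, over all 10 arrays (black) and without SCC replicate 2 (red). Dotted lines mark 2-fold. Gpnmb lay at 3.31 and 3.97, and the intervals of Chil3 and Pparg crossed 0 in both fits.

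The 3 genes whose groups did not overlap, Spp1, Trem2 and Gpnmb, were all higher in SCC. Over all tested probes, 16.3% had no overlap with SCC higher and 20.9% with SCC lower. Without SCC replicate 2, Siglec1 and Adgre1 joined them, and 5 genes were called. In that comparison of 4 tumours with 5 WT lungs the shares over all probes were also larger, with 23.9% without overlap and SCC higher, 29.9% without overlap and SCC lower, 11.5% called higher and 15.3% called lower. On SCC replicate 2 itself the median over the 3 tumour-type genes was 0.67 log2 units above the WT mean, against 2.94 to 2.98 on the other tumours. The direction of each called gene was kept in every setting examined, but slide mattered for the test. With slide as a fixed block the comparison rests on slide 2, where the WT side is a single array, and none of the 9 genes was called: Spp1 differed by 2.67 (limma adjusted p 0.0795), Trem2 by 1.62 (0.226), Gpnmb by 3.56 (0.0815) and Siglec1 by 1.00 (0.248), and Marco by -0.37 (0.527). On the same slide without SCC replicate 2, the difference between 2 tumours and 1 WT lung was 3.43 for Spp1, 2.39 for Trem2 and 4.65 for Gpnmb, with no test.

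Other genes of alveolar macrophages did not move as one group. Of 17 tested, 6 rose and 4 fell, with a median of 0.44 (0.73 without SCC replicate 2). With slide as a fixed block 1 rose and 4 fell. The epithelial and myeloid surface protein Plet1, the brightest, rose by 1.88 log2 units (SE 0.21). The fatty acid binding protein Fabp1 fell by 4.60 (SE 0.54), the largest difference of the list. The eosinophil-associated ribonuclease Ear1, which belongs to a family of near-identical genes and is uncertain for that reason, differed by -0.08 (limma adjusted p 0.797), and the GM-CSF receptor chain Csf2ra by 0.46 (limma adjusted p 0.163). The remaining calls were Fabp4, Itgax, Atp6v0d2, Csf2rb and Olr1 higher, and Car4, Krt79 and Cidec lower. Cidec and Fabp4 are also adipocyte genes, and Krt79 an epithelial keratin. Of the 6 that rose, 4 were no higher on SCC replicate 2 than in the highest WT lung.

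Of 17 tested genes of tumour and lipid-associated macrophages, 11 rose and 1, the angiogenic factor Vegfa, fell, with a median of 1.36. With slide as a fixed block 5 rose and 1 fell. The macrophage elastase Mmp12 rose by 6.36 log2 units (SE 1.10, limma adjusted p 0.00111), or 82.1-fold, and 189-fold without SCC replicate 2. The lysosomal proteases Ctsd and Ctsl rose 2.81-fold and 2.77-fold, and the annexin Anxa1 rose 3.76-fold. Several of these are not particular to macrophages, since Anxa1, Il1rn and Slc2a1 are strong in squamous epithelium. Apoe, a lipoprotein that Trem2 binds, differed by 0.41 (limma adjusted p 0.167). Without SCC replicate 2, 13 of the 17 rose.

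**Figure D3:**
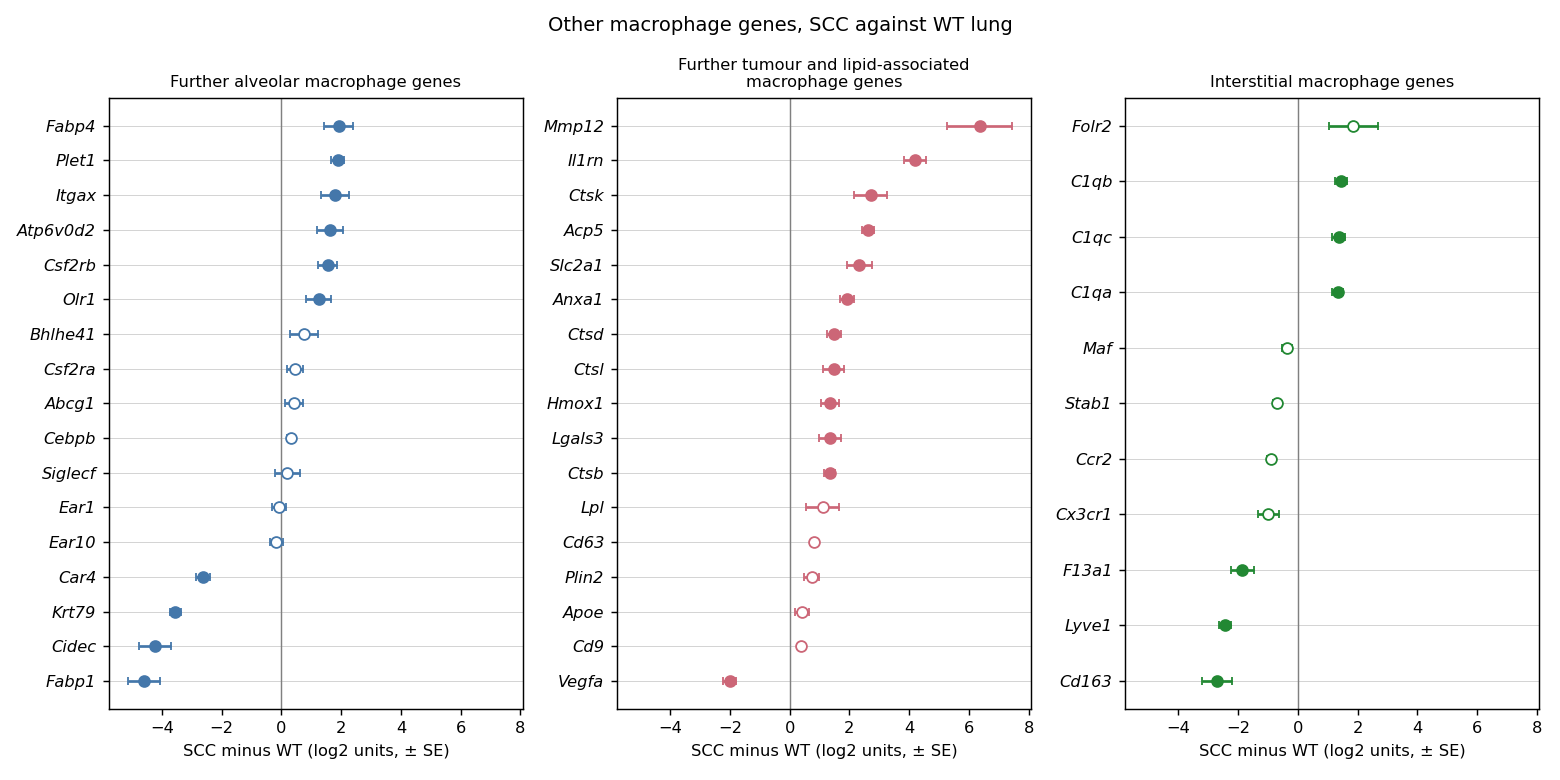
Difference between SCC and WT lung (x axis, log2 units ± SE) for the tested genes of 3 macrophage lists (y axis), with filled points for called genes. In the left panel 6 genes rose and 4 fell, in the middle panel 11 rose and 1 fell, and in the right panel 3 rose and 3 fell.

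Of 15 tested genes found in macrophages and other myeloid cells in general, 3 rose and 1 fell, with a median of 0.23 (0.47 without SCC replicate 2). Over all probes 9.92% were called higher and 13.0% lower. Besides Cd14, Cd68 rose by 1.95 log2 units and Itgam by 2.50 (3.16 without SCC replicate 2). Csf2, the gene of GM-CSF, fell by 1.45. Lyz2, the lysozyme of myeloid and alveolar epithelial cells, differed by 0.23 (SE 0.21, limma adjusted p 0.383), while the Fc receptor chain Fcer1g differed by 0.84 (limma adjusted p 0.0204, under 2-fold) and the endotoxin receptor Cd14 rose 5.91-fold. Without SCC replicate 2, 5 of the 15 rose. Interstitial macrophages live in the lung tissue between the air spaces, and their genes split: 3 of 11 rose and 3 fell. The complement gene C1qc rose 2.58-fold, and C1qa and C1qb also rose. The hyaluronan receptor Lyve1 fell 5.43-fold, the haemoglobin scavenger Cd163 fell 6.51-fold and F13a1 fell, while the scavenger receptor Stab1 differed by -0.70 (limma adjusted p 0.0014, under 2-fold). Lyve1 is also a gene of lymphatic endothelium, of whose 5 tested markers 3 fell, Lyve1 among them, with a mean level of 10.89 to 10.93 in WT and 9.49 to 10.21 in SCC.

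Of 12 tested genes of alternative activation 3 rose and none fell, where 9.92% of all probes were called higher. The resistin-like protein Retnla, also made by epithelium, rose 21.0-fold (SE 0.18 log2 units), Chil4 is given above, and the transglutaminase Tgm2 differed by 0.03 (limma adjusted p 0.875). Of 7 tested genes of inflammatory activation 2 rose and none fell: the cytokine signal suppressor Socs3 by 1.37 log2 units and the costimulatory ligand Cd80 by 1.72. The transcription factor Irf5 and the chemokine Cxcl10 were not called, with differences of 0.31 and 0.52. Of 9 tested genes of arginine and polyamine metabolism 3 rose (5 without SCC replicate 2) and none fell, with a median of 0.97. The cationic amino acid transporter Slc7a2 rose 3.04-fold. Odc1, Oat and Sms, the brightest, differed by 0.48, 0.25 and -0.37 (limma adjusted p 0.0575, 0.518 and 0.0185). Of 12 tested partners and targets of PPAR gamma 1 rose and 1 fell (2 without SCC replicate 5), near the shares over all probes. Both are sister receptors of Pparg. Ppard, well above background on 4 tumours and no WT lung, was at least 2.13-fold higher in SCC (measured means 5.13 and 3.26, limma adjusted p 0.00267), and it too was tested through its SCC arrays alone. Ppara fell by 1.49 log2 units. The brightest of them, the desaturase Scd1, differed by 0.15 (limma adjusted p 0.533) and the lipase inhibitor Angptl4 by -0.54 (limma adjusted p 0.319). The fatty acid transporter Cd36 was at 13.94 in SCC and 14.94 in WT (limma adjusted p 7.13e-04), just under 2-fold. Of 9 tested genes for scavenger receptors, mannose receptor relatives, other lectins and other Siglecs, 1 was called higher and 4 lower (2 higher without SCC replicate 2). Siglech, a relative of Siglec1, was 1 of the 4 and was tested through its WT arrays alone. Over the other 8, 1 rose and 3 fell, with a median of -0.60. The scavenger receptor Msr1 rose by 3.91 log2 units (4.53 without SCC replicate 2), while the collectin Colec12 fell 2.17-fold and the phospholipase receptor Pla2r1 fell 4.27-fold. The lectin Clec4n differed by 0.88 (limma adjusted p 0.00198, under 2-fold).

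Markers of other cell types also differed between the groups, in both directions. Of 8 tested neutrophil markers 5 rose (7 without SCC replicate 2 and 3 without SCC replicate 5), and the mean level of the list was 9.66 to 10.28 in WT and 10.70 to 12.68 in SCC, lowest on SCC replicate 2. That array's median over the list was -0.32 relative to the WT mean, against 1.82 to 1.96 on the other tumours. The medians of the neutrophil markers and of the tumour-type macrophage genes were thus lowest on the same tumour. Ltf, also a secretory gene of epithelium, rose by 8.80 log2 units and was not low on SCC replicate 2, at 8.91 above the WT mean. Ngp and Elane, markers of early neutrophils, were too dim to be tested. The squamous markers Krt5, Krt14 and Trp63 rose. Another 3 (Dsg3, Pkp1 and Krt6a) were above background on no WT array, were tested through their SCC arrays alone and are not counted. Of 8 tested dendritic cell markers 4 were called lower, of which Clec9a and Cd209a were tested through their WT arrays alone. Over the other 6, Zbtb46 and Ccr7 fell and Batf3 rose (not without SCC replicate 5). The mean level of the whole list was 7.54 to 7.73 in WT and 6.50 to 7.38 in SCC. Alveolar epithelial markers fell in 2 of 7 (3 without SCC replicate 2), from 15.78 to 15.88 in WT to 14.94 to 15.35 in SCC. Sftpc among them was at 18.80, the highest level of any probe, on every WT array, so its difference may be understated. Adipocyte markers lay at 7.99 to 10.17 in WT and 7.16 to 8.01 in SCC. The part of any of these cells in the macrophage gene results was not tested.

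**Figure D4:**
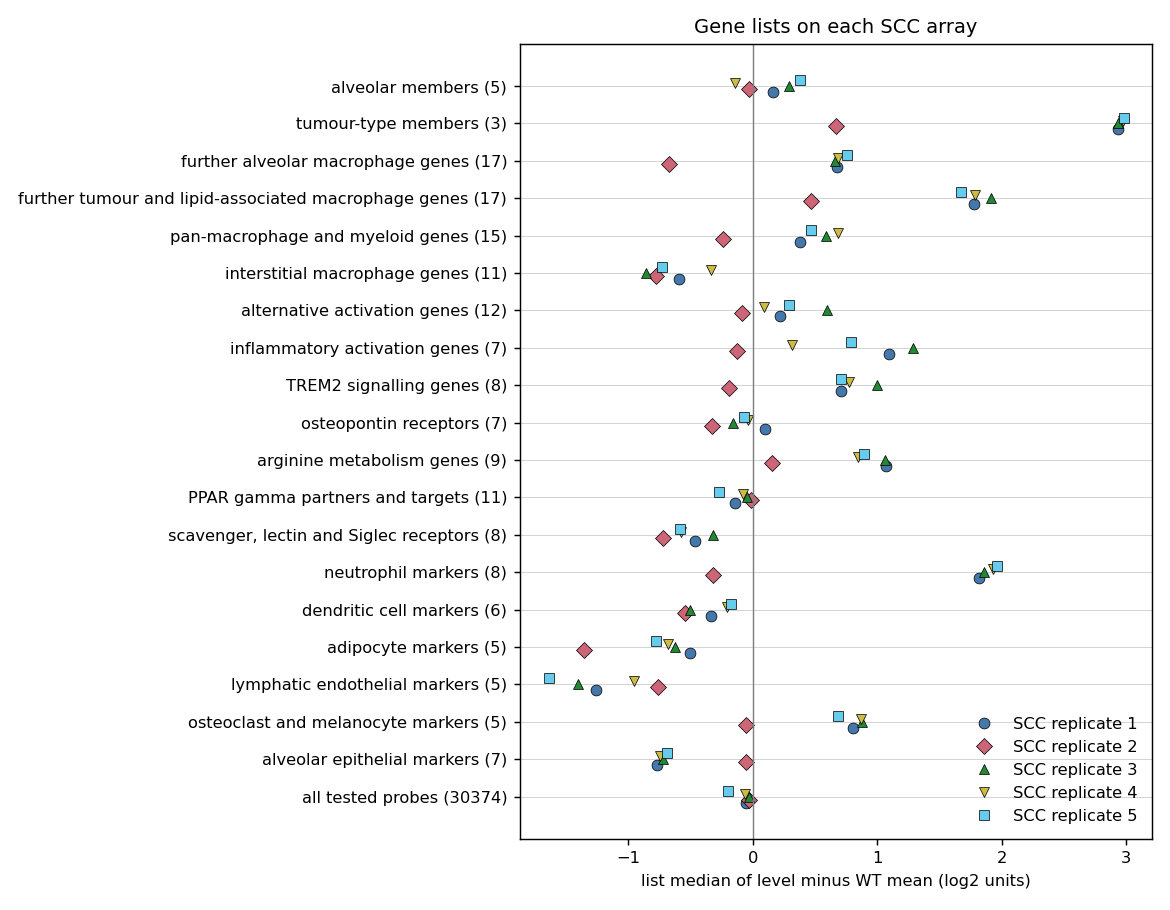
Median over each gene list of the level on an SCC array minus the WT mean (x axis, log2 units) for the 5 SCC replicates, one row per list with, in brackets, its number of genes well above background on at least 4 of 5 arrays in both groups (the lowest row takes all tested probes). For the tumour-type genes SCC replicate 2 (diamond) lay at 0.67 and the others between 2.94 and 2.98, and for the neutrophil markers it lay at -0.32 and the others between 1.82 and 1.96.

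The probes whose profiles over the 10 arrays were closest to each gene were listed by the root mean square difference of profiles centred on their mean, over 20785 probes with a gene symbol that were above background on all 10 arrays. Trem2 was nearest to the triglyceride synthase Dgat2 (0.14) and the glucose transporter Slc2a1 (0.19 log2 units), Gpnmb to Acsbg1 (0.25) and the chemokine Ccl3 (0.25), and Spp1 to Pdcd1 (0.23) and P2ry2 (0.27). Adgre1 was nearest to Emilin2 (0.11) and the protease Ctss (0.13), Mrc1 to Rarres1 (0.12) and Tfec (0.13), and Siglec1 to Cdca7 (0.13) and Tubb6 (0.14). Marco was nearest to Ccnd3 (0.17) and Cpa1 (0.21), Chil3 to Rps25 (0.05) and Bcr (0.07), and Pparg to Scamp3 (0.11) and Zfp934 (0.12). A flat gene finds near neighbours more easily than a changed one, and the ranking describes these 10 arrays only.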

How the data were processed

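RNA of 5 WT lungs and 5 SCCs was read on Agilent whole-mouse-genome arrays, 1 array per sample, grouped by sample title. Per the labels, the authors extracted processed intensity values with Agilent Feature Extraction 12. They also deposited a log2 matrix, which matched log2 of the quantile-normalized intensity (r of at least 0.9999 on each array) and served to choose probes and as an alternative. Quantile normalization fixes the distribution of each array, so differences are relative to it.

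Control and outlier spots were left out, spots of a probe averaged, and 41174 probes quantile-normalized. Probes well above background on at least 4 of 5 arrays of a group were tested (30374) by limma (version 3.58.1, R version 4.3.3), two-sided, without covariates and with Benjamini-Hochberg adjustment over these probes, in place of the one-way analysis of variance of the methods. The exact permutation test of means was two-sided over all splits of the arrays. Where no array of a group was well above background, folds are bounds against the mean of the higher of that array's lowest signal above background and the probe's own. The number of arrays limits the precision. Accessions were paired with symbols through RefSeq genes (GRCm38.p6), for 28223 probes (68.5%). The build of the files differs, so gene coordinates are not given, and promoters carry those of RefSeq.

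The genes and lists were chosen with earlier results of these data known. Of 10 genes listed, 1 is not reported here, nor are 2 genes of further lists. The text names the 9 genes, the 3 brightest tested genes and the largest called difference of each of 11 further lists, and 2 nearest profiles per gene. Other genes behind a count and Apoe were named after their values were seen. Lists share genes (Tyrobp and Lyve1 stand in 2 each). The fit was tested on simulated data. Alternatives were 75th percentile scaling, normexp background correction with an offset of 50, the deposited matrix, no filter or a filter of all 10 arrays, slide or replicate as a block, a t-test, array weights, leaving out arrays, the adjusted p alone and other probes.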

Additional observations from a re-analysis of the deposited data

Results flagged for a closer look

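In each group of 5 arrays the gap between an extreme array and its neighbour was divided by the range of the group, and 0.71 was taken as the critical value, which chance passes in about 1 of 20 groups. Of the 18 groups that the 9 macrophage genes form, 6 passed, all of them in SCC. SCC replicate 2 was the low array in 5 of these, with ratios of 0.955 for Spp1, 0.910 for Adgre1, 0.862 for Gpnmb, 0.848 for Trem2 and 0.725 for Siglec1. The levels there were 15.41, 11.90, 12.26, 12.90 and 8.32 log2 units. SCC replicate 4 was the low array for Pparg, with a ratio of 0.776, at 11.02 against 11.76 on the nearest tumour. The 5 genes were read on the same RNA sample, and their gaps are not independent of each other.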

How the results depend on the processing

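The 4 called genes kept their direction in all settings tried, and their side of the adjusted p threshold in all but slide as a fixed block. The other Siglec1 probe passed the adjusted p but stayed under 2-fold (0.84). That block moved the calls of the 9 genes from 4 to 0, with Marco at -0.37, Siglec1 at 1.00, Mrc1 at 1.00, Spp1 at 2.67, Trem2 at 1.62 and Gpnmb at 3.56, those of the other lists from 77 to 32, and those of all probes from 6954 to 2989 (1402 higher, 1587 lower). It leaves 1 WT array beside 3 tumours. Normexp correction gave 3969 calls (1909 higher, 2060 lower), and the adjusted p alone gave 14878 (6790 higher, 8088 lower). Mrc1 no longer passed with 75th percentile scaling (0.66), no filter on dim probes (0.65), the t-test (0.65) or the replicate block (0.65, adjusted p 0.0936). Without single arrays its difference ranged from 0.54 to 0.82. Adgre1 passed with normexp (0.72), array weights (0.99) and without both SCC arrays that stand apart (1.08), and ranged from 0.66 to 1.05 without single arrays, highest without SCC replicate 2. Differences near 0 turned sign: Chil3 with 75th percentile scaling (0.19) and slide block (0.019), and Pparg without both SCC arrays (-0.037). List medians also turned: the 5 alveolar genes (-0.037 without both SCC arrays, against 0.49 with the slide block), inflammatory genes with the slide block (-0.035), PPAR gamma partners with it (-0.035) and without SCC replicate 2 (-0.011), and osteopontin receptors with 75th percentile scaling (0.093), array weights (0.079), both SCC arrays left out (0.072), and from -0.093 to 0.037 without single arrays, positive without SCC replicate 2 or 3 (0.017). The causes were not tested. No pairing of samples by replicate number was seen, but such a check cannot show that they were unpaired. Deviations from the group means correlated at -0.103 to 0.0087 between arrays of a number. Of the SCC arrays 0 of 5 correlated best with their own number, and among the 9 genes the replicate block moved only Mrc1 across the threshold. In the other lists 5 of 77 called genes were lost under it, which left 3 neutrophil, 2 alternative activation, 2 arginine and 0 TREM2 signalling genes called higher. Without single arrays Gpnmb ranged from 3.09 to 3.97, and the count of called genes was 4 or 5.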
